A study of Mus musculus with 7 samples.

Results

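YAP and its paralog TAZ are transcriptional co-activators at the end of the Hippo pathway. When the kinases of that pathway are active, YAP and TAZ are phosphorylated and kept out of the nucleus. When the kinases are inactive, YAP and TAZ enter the nucleus and raise transcription through DNA-bound TEAD proteins. In the intestine this output is best known for epithelial regeneration after injury and for tumour growth. The genes described here are 10 established YAP/TEAD targets, Ccn1, Ccn2, Ankrd1, Gadd45a, Nuak2, Myof, Axl, F3, Crim1 and Asap1, taken by gene name from a table of 46671 genes. All 10 names were found, each in 1 row.

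The study addressed whether MST3, a STE20-family kinase encoded by Stk24, acts on YAP in the intestine. RNA came from the intestinal epithelium of BALB/C mice aged 8 weeks, in 4 libraries labelled cKO, from mice with MST3 knocked out in their intestinal epithelial cells, and in 3 libraries labelled Ctrl, from wild-type mice, which the design text describes as littermates. The allele and the driver of the deletion are not named in the labels, and the number of mice behind a library is not given, so the spread between libraries may be partly technical. The sample labels state that no drug was given to either group, whereas the design text names a carcinogen and colitis treatment (AOM and DSS). The tissue is labelled colorectum, but the small intestinal markers Lct, Sis, Apoa4, Fabp6, Gata4 and Defa24 summed to between 10644 and 14734 FPKM in cKO and between 14057 and 27623 FPKM in Ctrl. Car1, a marker of colonic epithelium, was listed at 0 in all 4 cKO libraries and had 2 reads in 1 Ctrl library.

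FPKM is the number of reads per kilobase of gene length, scaled to a library size, so it can be compared between genes. The libraries held between 14659708 and 19659622 reads, and 3 reads on a gene of 1000 bases correspond to between 0.155 and 0.216 FPKM. The targeted gene was lower in every library labelled cKO. Stk24 stood at 2.92, 3.04, 3.85 and 3.53 FPKM in cKO replicates 1 to 4, against 19.4, 19.4 and 21.0 FPKM in Ctrl replicates 1 to 3 (log2 difference -2.42, SE 0.12, limma adjusted p = 0.00043). With the replicate number as a block the difference was -2.44 (SE 0.12) and the limma adjusted p was 0.137, so that alternative ends the call without making the difference smaller. The labels state no pairing of same-numbered libraries. The epithelial markers Epcam, Cdh1, Vil1, Krt8, Krt20 and Cdx2 summed to between 4266 and 6722 FPKM in cKO and between 5240 and 5598 FPKM in Ctrl. Markers of other cell types were far lower. Fibroblast markers summed to between 0.676 and 7.91 FPKM in cKO and between 1.18 and 6.16 FPKM in Ctrl, endothelial markers to at most 0.809 FPKM in cKO and 0.742 FPKM in Ctrl, and smooth muscle markers to at most 0.206 FPKM in cKO and 0.604 FPKM in Ctrl. T cell markers (Cd3e, Cd3g, Cd8a, Trac) summed to between 38.2 and 106 FPKM in cKO and between 66.7 and 139.6 FPKM in Ctrl, and macrophage markers to between 3.59 and 5.27 FPKM in cKO and between 3.24 and 8.39 FPKM in Ctrl.

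The YAP/TEAD targets stood at very different levels in this epithelium. Their mean levels ran from 25.7 FPKM for Nuak2 and 24.6 FPKM for Gadd45a, through 7.90 FPKM for Crim1, 2.35 FPKM for Asap1 and 2.20 FPKM for F3, to 0.819 FPKM for Myof, 0.583 FPKM for Ccn1 and 0.0688 FPKM for Axl. Ccn2 and Ankrd1 were listed at 0 in all 7 libraries. Nuak2 and Gadd45a stood higher than 89.4% and 89.1% of the protein-coding genes in the table, Crim1 higher than 75.7% and Ccn1 higher than 50.5%. Between neighbours in this order, the ranges over the 7 libraries overlapped for Nuak2 and Gadd45a, for Asap1 and F3, and for Myof and Ccn1. They did not overlap for Gadd45a and Crim1, Crim1 and Asap1, F3 and Myof, or Ccn1 and Axl.

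**Figure D1:**
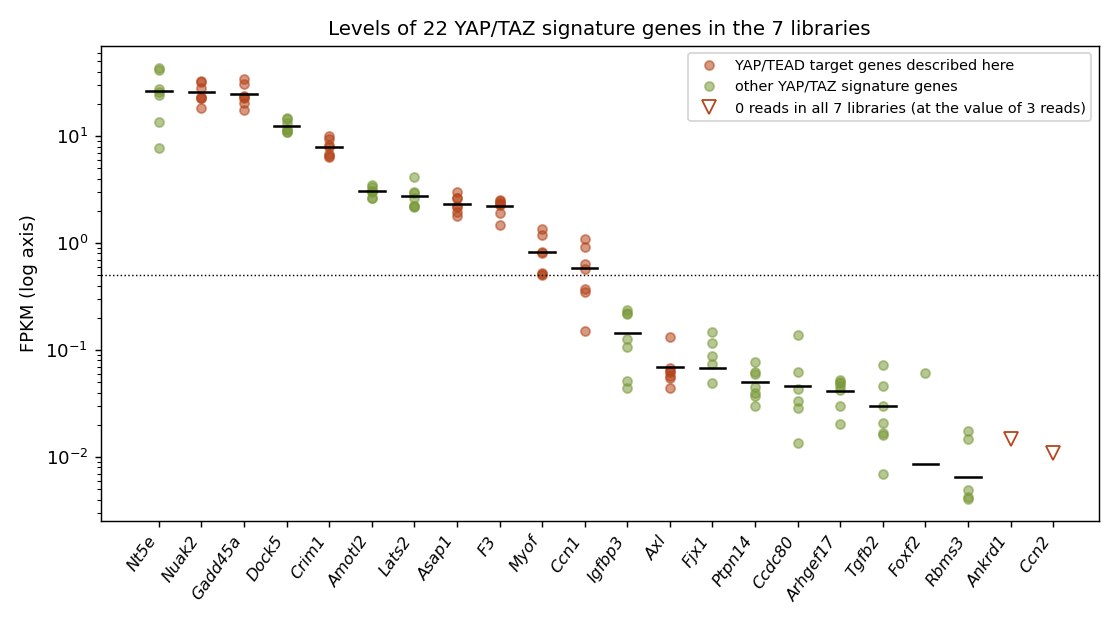
FPKM on a log axis of the 22 genes of a published YAP/TAZ target signature, in order of their mean over the 7 libraries (black bar, zeros included). Each point is 1 library with at least 1 read, red for the 10 targets described here and green for the other 12; open triangles stand at the FPKM of 3 reads over all 7 libraries for Ankrd1 and Ccn2, which are listed at 0, and the dotted line marks the mean of 0.5 FPKM required for testing. Among the 10 targets, Nuak2 and Gadd45a lie highest, at means of 25.7 and 24.6 FPKM, and Axl, Ankrd1 and Ccn2 lie below the line.

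TEAD proteins bind DNA at the sequence GGAATG, and RefSeq promoters (build GRCm38.p6, from the C57BL/6J strain and not from these mice) were found for 7 of the 10 targets. Of these 7, 4 hold GGAATG on either strand in the 250 bases before the transcription start, namely Ankrd1, Axl, Ccn1 and Crim1, against 12.6% of 32817 promoter windows of that length. They are shown because they carry the same motif but belong to genes listed at 0, near 0, at a low level and at a moderate level in these libraries. Each is written 5′ to 3′ on the strand of its gene, and the capitals mark the motif, which in Ccn1 reads CATTCC, its reverse complement.
Ankrd1 (chr19:36119845-36120094, minus strand): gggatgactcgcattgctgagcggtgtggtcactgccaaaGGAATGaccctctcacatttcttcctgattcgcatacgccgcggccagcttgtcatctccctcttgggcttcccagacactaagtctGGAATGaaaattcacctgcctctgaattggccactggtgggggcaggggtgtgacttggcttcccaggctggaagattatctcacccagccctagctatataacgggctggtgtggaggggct
Axl (chr7:25788734-25788983, minus strand): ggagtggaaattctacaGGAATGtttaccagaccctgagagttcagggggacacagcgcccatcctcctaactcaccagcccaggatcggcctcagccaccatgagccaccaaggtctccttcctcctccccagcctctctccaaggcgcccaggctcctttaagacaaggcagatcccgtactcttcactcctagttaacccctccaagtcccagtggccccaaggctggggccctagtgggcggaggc
Ccn1 (chr3:145649986-145650235, minus strand): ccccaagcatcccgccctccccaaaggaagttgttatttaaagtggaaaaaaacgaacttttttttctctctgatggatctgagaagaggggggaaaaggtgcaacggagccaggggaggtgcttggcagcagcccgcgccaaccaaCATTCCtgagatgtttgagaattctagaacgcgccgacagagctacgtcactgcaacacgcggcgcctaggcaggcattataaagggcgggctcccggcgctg
Crim1 (chr17:78199998-78200247, plus strand): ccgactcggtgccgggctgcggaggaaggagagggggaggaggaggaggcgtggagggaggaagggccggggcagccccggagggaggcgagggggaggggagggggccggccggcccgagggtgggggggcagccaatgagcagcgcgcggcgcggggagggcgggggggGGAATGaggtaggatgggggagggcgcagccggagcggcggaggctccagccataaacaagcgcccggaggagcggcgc
The match begins 103 bases before the start in Ccn1, 233 in Axl and 79 in Crim1, and Ankrd1 has 2 matches, at 210 and 123 bases. The promoters of Gadd45a, F3 and Myof hold no such letters in this window. The AP-1 motif TGANTCA was found in 1 of the 7 promoters, that of F3, and in 6.75% of all promoter windows, and the CArG box of the serum response factor SRF was found in 0 of 7 and in 1.47%. A match of letters is a description of the sequence and not evidence of binding.

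No YAP/TEAD target passed the test for a difference between the genotypes. The comparison, made with limma on log2(FPKM + 0.5), took in genes whose mean over the 7 libraries reached 0.5 FPKM, as 7 of the 10 targets did, while Axl, Ccn2 and Ankrd1 did not. Ccn1 reached it only through the cKO libraries, since its Ctrl mean was 0.473 FPKM. Of these 7, 0 passed a Benjamini-Hochberg adjusted p of 0.05, where 0.0306% of 13057 genes tested did (4 genes, all lower in cKO, and between 1 and 7 genes when 1 library was left out, with 7 without cKO replicate 1). At an unadjusted p under 0.05 there was 1 target, Gadd45a, beside 8.97% of all genes tested (4.73% lower in cKO), and voom on the recovered reads also called 0 targets. That 1 target depended on single libraries: there were 0 without Ctrl replicate 1 or without Ctrl replicate 2, where the unadjusted limma p of Gadd45a was 0.050 and 0.064, and 2 without cKO replicate 3, where Myof also had an unadjusted limma p of 0.048. The estimates lay above 0 for 4 targets and below 0 for 3, with a median log2 difference of 0.0040 beside -0.0077 over all genes tested. After rescaling to TPM the median over the targets was 0.090, beside 0.074 over all genes tested. The difference of cKO minus Ctrl ran from -0.49 for Gadd45a to 0.37 for Myof, and adjusted p-values lay between 0.511 and 0.997. In these bulk samples, fewer cells of a type and less RNA per cell cannot be told apart.

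**Figure D2:**
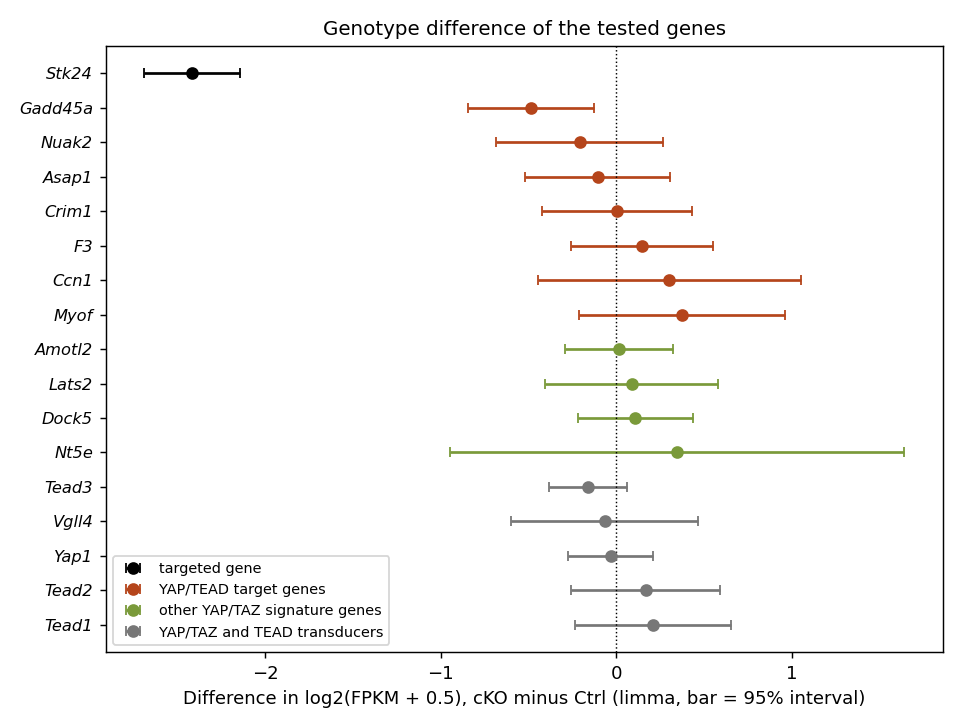
Difference in log2(FPKM + 0.5) of cKO minus Ctrl for each tested gene (limma estimate, 4 and 3 libraries; bars are 95% intervals), for the targeted gene Stk24 in black, the 7 tested targets in red, 4 other signature genes in green and 5 transducers of the pathway in grey. Stk24 lies at -2.42, and among the others only the interval of Gadd45a, -0.85 to -0.13, does not reach 0, without adjustment for the number of genes tested.

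The secreted matricellular proteins CCN1 (CYR61) and CCN2 (CTGF) are the most used readouts of YAP activity. Ccn1 (chromosome 3, 145352726 to 145355740, minus strand, GRCm39) stood at 0.638, 1.08, 0.374 and 0.567 FPKM in cKO replicates 1 to 4 and at 0.915, 0.352 and 0.152 FPKM in Ctrl replicates 1 to 3. These values rest on between 5 and 37 reads per library, and the groups overlap, with the second highest value of all in Ctrl replicate 1 and the lowest in Ctrl replicate 3. Summed over a group, 87 reads gave 0.680 FPKM in cKO (exact Poisson 95% interval 0.545 to 0.839) and 53 reads gave 0.499 FPKM in Ctrl (0.374 to 0.653), and these intervals cover counting error only. The log2 difference was 0.30 (SE 0.33, 95% interval -0.45 to 1.05, limma adjusted p = 0.805). For so low a gene the pseudocount sets the size of the estimate, which was 0.57 when 0.1 was added before the logarithm, 0.19 when 1 was added, 0.50 after rescaling to TPM and 0.70 with voom on the recovered reads, and 1 library could move it as far, to 0.052 without Ctrl replicate 3, 0.14 without cKO replicate 2 and 0.61 without Ctrl replicate 1. Adjusted p-values for Ccn1 over all alternatives lay between 0.742 and 0.977.

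Ccn2 (chromosome 10, 24471340 to 24474581, plus strand) was listed at 0 in every library. Whether a step before deposition set its row, or that of Ankrd1, to 0 cannot be told from the table. Taken as counts of 0, for a gene of its length 3 reads would amount to between 0.0643 and 0.0897 FPKM in a single library, or 0.0108 FPKM over all 7, so a level under these values could not be seen. Ankrd1 (chromosome 19, 36089365 to 36097244, minus strand), which encodes a nuclear ankyrin repeat protein best known from heart muscle and is among the genes most responsive to YAP in cell culture, was likewise listed at 0, where 3 reads amount to between 0.0876 and 0.122 FPKM in 1 library. No comparison of the genotypes can be made for either gene.

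Gadd45a and Nuak2 were the abundant targets. Gadd45a (chromosome 6, 67012080 to 67014391, minus strand) encodes a growth arrest protein that is also induced by p53 after DNA damage. It stood at 23.1, 17.5, 20.3 and 22.7 FPKM in cKO replicates 1 to 4, against 31.1, 34.1 and 23.7 FPKM in Ctrl replicates 1 to 3. It is the 1 tested target whose libraries did not overlap between the genotypes, and the margin is narrow, between 23.1 FPKM in cKO replicate 1 and 23.7 FPKM in Ctrl replicate 3. Libraries did not overlap for 10.1% of all genes tested and lay lower in cKO without overlap for 4.51%. The cKO mean was 20.9 ± 2.55 FPKM (SD, n = 4) and the Ctrl mean 29.6 ± 5.32 FPKM (SD, n = 3), and the log2 difference was -0.49 (SE 0.16, unadjusted p = 0.014, limma adjusted p = 0.511). An exact permutation test over the libraries (2-sided) gave p = 0.0571, and no split of 7 libraries into 4 and 3 can give less. After rescaling to TPM the groups overlapped, at 51.8 TPM in cKO replicate 1 and 48.7 TPM in Ctrl replicate 3. The estimate stayed between -0.64 and -0.38 over 16 alternatives, and adjusted p-values lay between 0.410 and 0.806. A long noncoding RNA on the opposite strand, E230016M11Rik, overlaps Gadd45a and stood at a mean of 1.29 FPKM, and the strand setting of the counting is not given in the sources used here.

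Nuak2 (chromosome 1, 132243816 to 132261226, plus strand) encodes an AMPK-related kinase that is induced by YAP and feeds back on the pathway. It stood at 23.1, 18.2, 22.7 and 32.9 FPKM in cKO replicates 1 to 4 and at 28.4, 22.7 and 32.0 FPKM in Ctrl replicates 1 to 3. The highest and the lowest library were both cKO, replicates 4 and 2, so the cKO range enclosed the Ctrl range. The log2 difference was -0.21 (SE 0.21, 95% interval -0.68 to 0.26, limma adjusted p = 0.780), and it moved to -0.36 without cKO replicate 4, -0.34 without Ctrl replicate 2, -0.085 without cKO replicate 2, -0.10 without Ctrl replicate 3 and -0.12 after rescaling to TPM, with adjusted p between 0.538 and 0.952 over the alternatives.

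Among the targets at the cell surface, Axl (chromosome 7, 25455925 to 25488502, minus strand), a receptor tyrosine kinase of mesenchymal and immune cells, was close to the limit of detection. It had 6, 5, 5 and 10 reads in cKO replicates 1 to 4 and 6, 4 and 6 reads in Ctrl replicates 1 to 3. These reads correspond to between 0.0546 and 0.132 FPKM in cKO and between 0.0439 and 0.0683 FPKM in Ctrl, and the groups overlap (exact 2-sided permutation p = 0.400). Over a group, 26 reads gave 0.0759 FPKM in cKO (exact Poisson 95% interval 0.0496 to 0.111) and 16 reads gave 0.0563 FPKM in Ctrl (0.0322 to 0.0914). The highest Axl value, in cKO replicate 4, came from the library with the highest sum of the 6 fibroblast markers, 7.91 FPKM against 0.931, 0.676 and 2.16 FPKM in cKO replicates 1 to 3 and 2.92, 1.18 and 6.16 FPKM in Ctrl replicates 1 to 3. Most of that sum was 1 gene, Dcn, at 6.25 FPKM in cKO replicate 4 and 4.70 FPKM in Ctrl replicate 3. Col1a2, Col3a1 and Lum were also highest in cKO replicate 4, whereas Col1a1 and Pdgfra were highest in Ctrl replicate 3. Pdgfra was at 0 in cKO replicates 1 to 3 and in Ctrl replicate 2. The part of these markers in the Axl value was not tested.

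F3 (chromosome 3, 121517186 to 121528701, plus strand), which encodes tissue factor, the initiator of the extrinsic clotting pathway, stood at 2.49, 2.53, 1.91 and 2.30 FPKM in cKO replicates 1 to 4 and at 2.39, 2.32 and 1.48 FPKM in Ctrl replicates 1 to 3. Only Ctrl replicate 3 lay below the cKO range, and the log2 difference was 0.15 (SE 0.18, 95% interval -0.26 to 0.55, limma adjusted p = 0.837). Without Ctrl replicate 3 it was -0.030. Crim1 (chromosome 17, 78507602 to 78684021, plus strand), which encodes a transmembrane protein that binds bone morphogenetic proteins, stood at 6.78, 6.53, 10.1 and 8.29 FPKM in cKO replicates 1 to 4 and at 6.37, 7.86 and 9.41 FPKM in Ctrl replicates 1 to 3. The genotypes overlapped over almost their whole range, and the log2 difference was 0.0040 (SE 0.18, 95% interval -0.42 to 0.43, limma adjusted p = 0.997), an estimate whose sign depended on the library left out. The 3' part of Crim1 overlaps Fez2 on the opposite strand, at a mean of 11.3 FPKM.

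Myof (chromosome 19, 37887484 to 38032025, minus strand) encodes myoferlin, a membrane repair and vesicle fusion protein. It stood at 1.19, 1.35, 0.517 and 0.829 FPKM in cKO replicates 1 to 4 and at 0.817, 0.530 and 0.498 FPKM in Ctrl replicates 1 to 3. The cKO replicates 1, 2 and 4 lay above all Ctrl libraries, while cKO replicate 3 lay between Ctrl replicates 3 and 2. Its log2 difference, 0.37 (SE 0.25, 95% interval -0.21 to 0.96, limma adjusted p = 0.688), was the highest estimate among the 7 tested targets on the main scale. It was 0.62 with voom, 0.25 without cKO replicate 2, and adjusted p-values over the alternatives lay between 0.628 and 0.875. Asap1 (chromosome 15, 63958689 to 64254922, minus strand), an Arf GTPase-activating protein that acts on the actin cytoskeleton and focal adhesions, stood at 1.94, 2.22, 2.16 and 2.63 FPKM in cKO replicates 1 to 4 and at 1.78, 3.02 and 2.66 FPKM in Ctrl replicates 1 to 3. The Ctrl range enclosed the cKO range, and the log2 difference was -0.11 (SE 0.18, 95% interval -0.52 to 0.31, limma adjusted p = 0.890), with -0.29 without Ctrl replicate 1, -0.17 without cKO replicate 4, 0.023 without Ctrl replicate 2, and -0.054 both without cKO replicate 1 and without Ctrl replicate 3.

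**Figure D3:**
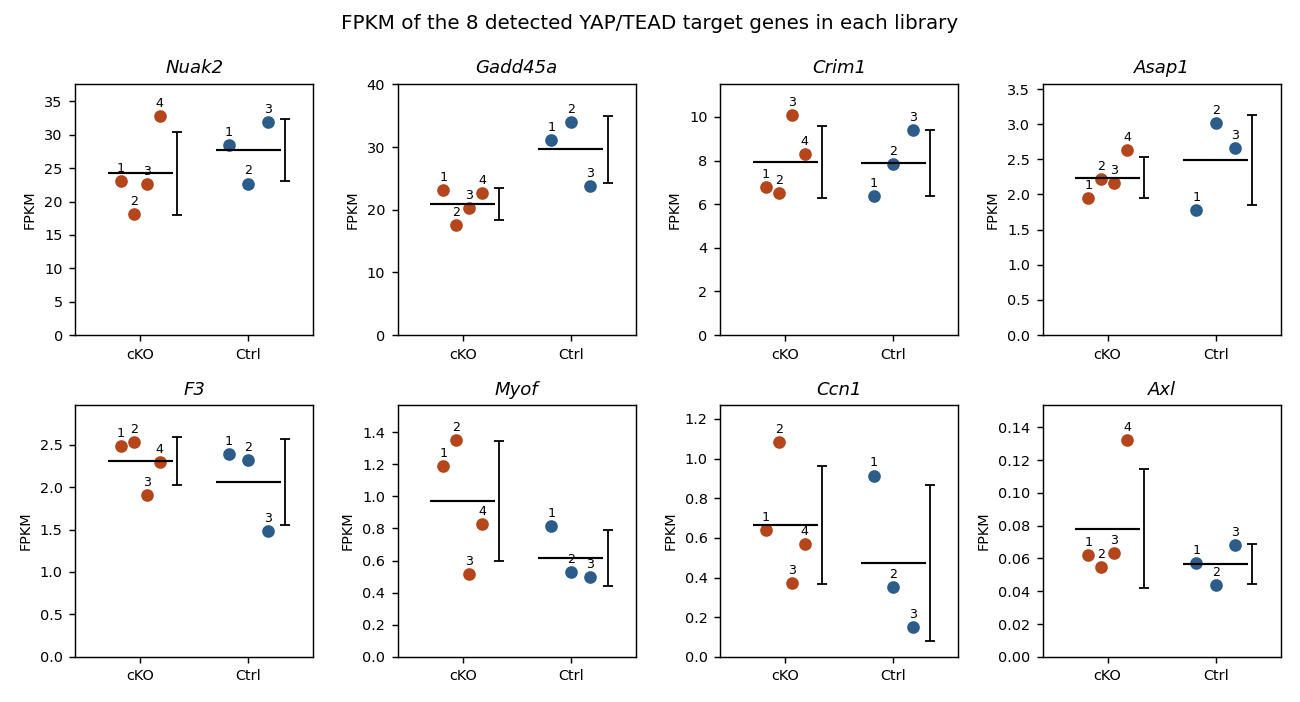
FPKM of the 8 detected targets in each library on linear axes that start at 0, cKO (red, n = 4) left and Ctrl (blue, n = 3) right, with the replicate number above each point, the group mean as a line and the SD as a bar. The groups overlap in every panel except that of Gadd45a, where the cKO libraries end at 23.1 FPKM and the Ctrl libraries begin at 23.7 FPKM.

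The members of the pathway that carry YAP output were present, with TAZ and TEAD4 near the limit. Yap1 stood at 16.3, 16.8, 14.9 and 16.6 FPKM in cKO replicates 1 to 4 and at 14.8, 17.5 and 17.3 FPKM in Ctrl replicates 1 to 3, with a log2 difference of -0.030 (95% interval -0.27 to 0.21, limma adjusted p = 0.949). Wwtr1, which encodes TAZ, had between 8 and 23 reads in a cKO library and between 2 and 9 reads in a Ctrl library, or between 0.0941 and 0.331 FPKM in cKO and between 0.0215 and 0.112 FPKM in Ctrl (exact 2-sided permutation p = 0.114). Over a group, 52 reads gave 0.172 FPKM in cKO (exact Poisson 95% interval 0.129 to 0.226). In Ctrl 18 reads gave 0.0718 FPKM (0.0426 to 0.114). These intervals do not overlap, but they cover counting error only, and the single libraries of Wwtr1 overlap. Among the TEAD genes Tead3 was the most abundant. Tead3 stood at 6.95, 6.71, 6.55 and 7.20 FPKM in cKO replicates 1 to 4, against 7.60, 8.24 and 7.36 FPKM in Ctrl replicates 1 to 3. Its libraries did not overlap, but did after rescaling to TPM, at 15.9 TPM in cKO replicate 2 and 15.1 TPM in Ctrl replicate 3. Among all genes tested, 10.1% had no overlap between the genotypes, and 4.51% lay lower in cKO without overlap. The log2 difference of Tead3 was -0.16 (SE 0.097, limma adjusted p = 0.649). Tead1 averaged 2.001 ± 0.457 FPKM in cKO (SD, n = 4) and 1.65 ± 0.310 FPKM in Ctrl (SD, n = 3), and Tead2 averaged 0.792 ± 0.122 FPKM in cKO and 0.651 ± 0.120 FPKM in Ctrl. Tead4, below the level for testing, lay between 0.0934 and 0.238 FPKM in cKO and between 0.0194 and 0.402 FPKM in Ctrl. Vgll4, which competes with YAP for TEAD, averaged 2.49 ± 0.870 FPKM in cKO (SD, n = 4) and 2.54 ± 0.228 FPKM in Ctrl (SD, n = 3). Of the 7 transducers 5 were tested and 0 passed in limma, with 0 at an unadjusted p under 0.05.

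The 10 targets belong to a published signature of 22 genes, and the remaining 12 also ran from genes near 0 to abundant ones. Of these 12, 4 reached the level for testing, and 0 passed in limma, with 0 at an unadjusted p under 0.05 and adjusted p between 0.854 and 0.980. The estimates of these 4 lay above 0. Their median log2 difference was 0.097, beside -0.0077 over all genes tested, and 0.18 beside 0.074 after rescaling to TPM. Nt5e, the ecto-nucleotidase CD73, varied most among the 4, at 13.6, 27.7, 26.1 and 43.9 FPKM in cKO replicates 1 to 4 and at 7.79, 24.4 and 41.6 FPKM in Ctrl replicates 1 to 3. Both genotypes spread widely and overlapped (log2 difference 0.35, 95% interval -0.95 to 1.64). Dock5, a guanine nucleotide exchange factor for Rac, averaged 12.9 ± 1.95 FPKM in cKO (SD, n = 4) and 11.9 ± 1.30 FPKM in Ctrl (SD, n = 3). Amotl2 and Lats2 are negative feedback genes that restrain YAP. Amotl2 averaged 3.07 ± 0.357 FPKM in cKO (SD, n = 4) and 3.03 ± 0.350 FPKM in Ctrl (SD, n = 3), and Lats2 averaged 2.89 ± 0.918 FPKM in cKO and 2.62 ± 0.361 FPKM in Ctrl. The other 8, Igfbp3, Fjx1, Foxf2, Ccdc80, Ptpn14, Arhgef17, Tgfb2 and Rbms3, had mean levels between 0.00650 FPKM for Rbms3 and 0.144 FPKM for Igfbp3. Thus 11 of the 22 signature genes could be tested.

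The targets also differed in which libraries held their high values. Ccn1 and F3 had their 3 highest values in cKO replicates 1 and 2 and Ctrl replicate 1, and Crim1 had its 3 lowest values in these same libraries. Of all genes tested, 6.22% had these libraries as the 3 highest and 5.49% as the 3 lowest, and the pattern was noticed in the values. In the library profiles, 7 of 12 immediate early genes, the transcripts that cells induce within minutes of a stimulus, also had their 3 lowest values there (Fos, Fosb, Jun, Atf3, Dusp1, Klf2 and Btg2, named after their values were seen). Junb, Egr1 and Ier2 instead had cKO replicate 1 and Ctrl replicate 1 among their 3 highest values. Klf4 and Zfp36 had their 3 lowest values in Ctrl replicate 1 and cKO replicates 2 and 3. Fos stood at 40.2, 33.9, 96.1 and 159.5 FPKM in cKO replicates 1 to 4 and at 37.2, 93.3 and 119 FPKM in Ctrl replicates 1 to 3. Within the cKO group, Ccn1 was higher in both libraries with less Fos than in both libraries with more. Ccn1 is itself known as an immediate early gene in cultured cells. All 12 immediate early genes were tested and 0 passed in limma. At an unadjusted p under 0.05 there was 1, Junb (log2 difference -0.48, limma adjusted p = 0.516), beside 8.97% of all genes tested (4.73% lower in cKO). The median log2 difference of the 12 was -0.18, or -0.14 after rescaling to TPM, where 0 had an unadjusted p under 0.05. All 12 estimates lay below 0, and 11 of 12 did in TPM and after quantile normalization. Over all genes tested the median log2 difference was -0.0077, or 0.074 in TPM and 0.021 after quantile normalization. Since 7 of the 12 share their 3 lowest libraries, the 12 signs are not separate observations. Zfp36 had the next smallest p after Junb, with a log2 difference of -0.31 and an adjusted p of 0.754.

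**Figure D4:**
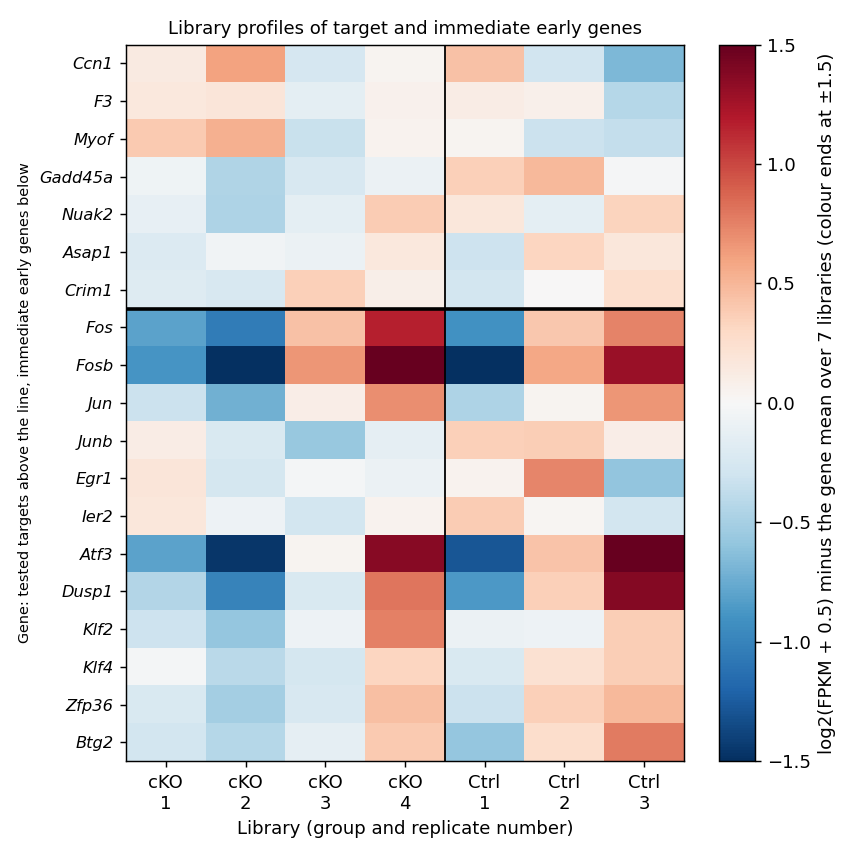
Departure of log2(FPKM + 0.5) from the gene mean over the 7 libraries, in colour (red above, blue below; colours end at 1.5 in either direction), for the 7 tested targets above the line and the 12 immediate early genes below it, with cKO libraries left of Ctrl libraries. In cKO replicates 1 and 2 and Ctrl replicate 1, Fos, Fosb, Jun and Atf3 are blue while Ccn1 and F3 are red, faintly so for F3 and for Ccn1 in cKO replicate 1. F3 also lies slightly above its mean in cKO replicate 4 and Ctrl replicate 2.

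Genes listed for the SRF and MRTF pathway, which also drives Ccn1, Ccn2 and Ankrd1 in other cells, were largely present in this epithelium. Their means ran from 0.0439 FPKM for Tgfb1i1 to 811 FPKM for the actin gene Actg1 and 1724 FPKM for the actin gene Actb. Presence of such genes is no measure of the activity of the pathway, which was not tested. Of 10 listed genes 9 were tested and 0 passed in limma, with 0 at an unadjusted p under 0.05. With voom there was 1, beside 1184 of 13057 genes tested. The estimates lay above 0 for 5 and below 0 for 4, with a median log2 difference of 0.017, and after rescaling to TPM above 0 for 6 and below 0 for 3, with a median of 0.10 beside 0.074 over all genes tested. Flna, an actin cross-linker, and Vcl, a protein of focal adhesions, had the smallest p, at log2 differences of -0.33 (adjusted p = 0.568) and 0.23 (adjusted p = 0.703). The genes whose profile over the 7 libraries lay closest to that of Ccn1 on the log2(FPKM + 0.5) scale were Rps10-ps2, Plp2 and Bcap29. Their root-mean-square differences were 0.141, 0.142 and 0.142 log2 units, where Ccn1 itself varied by 0.411 about its mean. They were picked as the closest of all genes tested, so small differences follow from the choice, and shared regulation was not tested. Plp2 stood at 59.2, 68.7, 48.9 and 52.2 FPKM in cKO replicates 1 to 4 and at 60.0, 45.1 and 34.2 FPKM in Ctrl replicates 1 to 3. Ccn1 ran from 0.152 to 1.08 FPKM, a wider relative spread that the added 0.5 FPKM narrows on this scale. Rps10-ps2 is a pseudogene that can share reads with its parent gene, so its value is uncertain. Ccn2, listed at 0, has no profile to match.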

How the data were processed

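The authors deposited 1 FPKM value per gene and library, with gene lengths and GRCm39 chromosome accessions. HISAT2 is named as the aligner, per the submitters' processing notes. Its version, the counting program, strand setting and annotation release were not given in the sources used here. Multiplying the deposited FPKM by gene length recovered whole reads in 100% of values (tolerance 0.01). The authors' library sizes lay between 0.891 and 1.10 times the recovered totals. Chi-square tests of the reads gave at least 19.5 per degree of freedom for each pair of libraries within a group, above sampling noise.

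Genes averaging 0.5 FPKM or more (13057) were compared on log2(FPKM + 0.5), a scale that understates the change of low genes, with limma 3.58.1 in R 4.3.3 (lmFit and eBayes with a trend, 2-sided, no covariate, Benjamini-Hochberg adjustment, threshold 0.05). The fit was tested on simulated data. Exact permutation tests covered all 35 ways to label 4 of 7 libraries cKO and doubled the smaller tail. Named were all 10 targets, Stk24, 7 transducers, the 12 other signature genes, the 3 genes closest in profile to Ccn1, and the 2 smallest p of the immediate early and SRF lists. The remaining immediate early genes were named besides, for their library pattern, after their values were seen. The members and lists were chosen with earlier results of these data known. The alternatives were pseudocounts of 0.1 and 1, other level filters, TPM, quantile normalization, no variance trend, voom on recovered reads, a replicate block, and leaving out each library. The sum over colonic markers is not reported here.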

Additional observations from a re-analysis of the deposited data

Results flagged for a closer look

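In 5 of 38 sets of 4 cKO libraries examined, 1 library stood apart from the other cKO libraries, by a gap above the Dixon limit for 4 values. For normally distributed values chance gives such a gap in about 1 of 20 sets. That rate does not hold for Axl, Ccdc80, Foxf2 and Tgfb2, which rest on at most 10 reads in a cKO library. A gene with reads in only 1 cKO library, as Foxf2, is always flagged. The 5 flags are therefore no measure of an excess. Axl stood at 0.132 FPKM in cKO replicate 4, against 0.0546 to 0.0634 FPKM in the other cKO libraries and 0.0439 to 0.0683 FPKM in Ctrl. Ccdc80, an extracellular matrix gene, stood at 0.139 FPKM in cKO replicate 4, against 0.0136 to 0.0333 FPKM in the other cKO libraries and at most 0.0622 FPKM in Ctrl. Foxf2, a transcription factor gene of gut mesenchyme, stood at 0.0607 FPKM in the same library, from 2 reads, and was listed at 0 in the other 6. Tead2 was lowest in cKO replicate 4, at 0.609 FPKM against 0.847 to 0.859 FPKM in the other cKO libraries, a value within the Ctrl range of 0.555 to 0.786 FPKM. Tgfb2 stood at 0.0462 FPKM in cKO replicate 1, against 0.0162 to 0.0209 FPKM in the other cKO libraries and 0.00699 to 0.0725 FPKM in Ctrl. The summed fibroblast markers were also highest in cKO replicate 4, at 7.91 FPKM, of which Dcn alone made up 6.25 FPKM. The part of these markers in the flagged values was not tested.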

How the results depend on the processing

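The count of 0 targets past the threshold held under all 16 alternatives, and of 110 single estimates 104 kept their direction. That share overstates stability. The other level filters and the fit without a variance trend leave each estimate as it was, so its sign could not change there. The replicate block repeats the estimates obtained without cKO replicate 4. The 6 that changed sign were Crim1 with the replicate block and without cKO replicate 4 (both -0.023), without cKO replicate 3 (-0.11) and without Ctrl replicate 1 (-0.13), Asap1 without Ctrl replicate 2 (0.023), and F3 without Ctrl replicate 3 (-0.030). Leaving out single libraries gave -0.13 to 0.13 for Crim1, -0.29 to 0.023 for Asap1, -0.030 to 0.24 for F3 and -0.13 to 0.084 for the median over the tested targets. That median, 0.0040, was -0.107 with a mean of at least 1 FPKM, which leaves out Ccn1 and Myof. The count of all genes past the threshold, 4, was 1 with a pseudocount of 0.1, with no filter and at a minimum mean of 1 FPKM, 2 with voom, and 1 to 7 without single libraries; the cause was not tested. It was 0 with the replicate block, where limma gave 1052 genes at an unadjusted p under 0.05, Gadd45a and Nuak2 among them. There Stk24 kept a log2 difference of -2.44 with a limma adjusted p of 0.137, and under each other alternative its limma adjusted p was at most 0.0093. Same-numbered libraries share only a number: their deviations correlated at 0.12, -0.087 and -0.13 over genes, and not every library correlated best with its own number. The cKO replicate 4, alone in its replicate block, does not enter that estimate. At these depths Ccn1 and Axl rest on at most 37 and 10 reads in a library.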
